A study of Mus musculus with 12 samples.

Results

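Prostaglandins are short-lived lipid signals made on demand from arachidonic acid. The cyclooxygenases encoded by Ptgs1 and Ptgs2 convert it to the common precursor PGH2, and terminal synthases turn PGH2 into PGD2 (Ptgds) or PGE2 (Ptges, and less firmly Ptges2 and Ptges3). PGE2 acts on receptors encoded by Ptger1, Ptger3 and Ptger4, and the dehydrogenase encoded by Hpgd begins its breakdown. In the kidney, PGE2 is known for its effects on blood flow, renin release and salt and water handling. Ptgds encodes lipocalin-type prostaglandin D synthase, which is also a secreted carrier protein of the lipocalin family. These 10 genes were chosen by symbol from the 24062 genes of the deposited counts, and all 10 were among the 14970 genes tested. Ptgds was selected on its counts, which differed with Cre status in these same libraries, so its Cre values are given as a description with no test. The other 9 were included as genes of the pathway.

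The RNA came from whole kidneys of 12 mice of a Pkd1 model of polycystic kidney disease, with 1 library listed per mouse. Mice received tamoxifen and carried Cre (CrePlus) or did not (CreMinus), and were 6 to 8 weeks old. They had either a sham operation or removal of 1 kidney (unilateral nephrectomy, UNx), and tissue was taken 4 weeks after surgery. Crossing Cre status with surgery gave 4 groups of 3 libraries. The labels used here name neither the cells in which Cre acts nor the part of Pkd1 that is removed. In whole kidney, a change in the number of cells that express a gene and a change in RNA per cell cannot be told apart.

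Library totals ranged from 18914300 to 22480895 counts, apart from 4 deep libraries with 41699032 to 42785476 counts. The deep ones were UNx CreMinus replicate 1 and all 3 of UNx CrePlus. Xist and 4 Y-linked genes gave 5 male libraries, namely replicates 1 and 2 of UNx CrePlus, replicate 1 of UNx CreMinus and replicate 3 of both sham groups. The other 7 libraries were female. Depth and sex were thus unevenly spread over the UNx groups. Depth varied within UNx CreMinus kidneys only, where replicate 1 was the only deep library and also the only male. Values for the UNx groups from a fit with a depth term therefore rest on how that 1 library differs from the others of its group. The title of sham CrePlus replicate 1 names a group in place of an animal number. The authors also deposited a second comparison of sham CrePlus and sham CreMinus kidneys that leaves this library out. Kidney markers were present in every library, with summed levels of 5 proximal tubule markers of 10055 to 12384 CPM (reads of a gene scaled to a common library total).

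Ptgds (gene 19215) lies on the minus strand of chromosome 2 at 25466709 to 25470110 (GRCm38). The stretch before one of its annotated starts is shown because Ptgds was the member whose level differed most between the Cre groups, and that of Hpgd because its level differed most between the sexes. Sequences are from RefSeq (GRCm38.p6), 5′ to 3′ on the gene's strand, in lower case with matches to the AP-1 motif (TGANTCA) and the E-box (CANNTG) in capitals. The 3 stretches below are Ptgds at chr2:25469843-25469999 (minus strand), Ptgds around its AP-1 match at chr2:25469768-25469794 (minus strand), and Hpgd at chr8:56294302-56294551 (plus strand). The Ptgds window ends at the RefSeq table's start at 25469749, which lies inside the gene span given above, since other transcripts of Ptgds begin further upstream. Of the 250 bases of that window, the 93 nearest this start are annotated as exon of such a transcript in GENCODE and are left out, apart from the short piece around the AP-1 match.
Ptgds: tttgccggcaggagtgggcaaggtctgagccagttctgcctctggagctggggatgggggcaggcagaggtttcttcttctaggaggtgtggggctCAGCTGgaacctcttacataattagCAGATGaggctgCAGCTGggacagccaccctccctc
Ptgds AP-1 match: aggccaagccTGACTCAtaaatagggg
Hpgd: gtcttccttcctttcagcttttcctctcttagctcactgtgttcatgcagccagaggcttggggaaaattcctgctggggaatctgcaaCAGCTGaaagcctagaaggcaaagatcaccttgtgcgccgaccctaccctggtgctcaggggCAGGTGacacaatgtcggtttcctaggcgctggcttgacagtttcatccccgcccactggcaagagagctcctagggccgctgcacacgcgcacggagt

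Windows of 250 bases before the start were available for 9 of the 10 members, all but Ptger1, and both strands were searched. The AP-1 motif was found in 1 of the 9, that of Ptgds, 35 to 29 bases before the start at 25469749 and within those 93 exonic bases, and in 6.75% of all 32851 windows. The E-box was found in 7 of the 9 and in 66.2% of all windows. None of the 9 held the cyclic AMP response element (TGACGTCA, 1.55% of windows), TATAAA (12.4%), the half-site AGGTCA (14%) or a p53 half-site (7.13%). A match is a description of letters and shows no binding.

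Ptgds was low in all 6 CreMinus kidneys and several-fold higher in all 6 CrePlus kidneys. In sham CreMinus kidneys its level was 2.49, 5.07 and 2.90 CPM in replicates 1 to 3, and in sham CrePlus kidneys 34.5, 23.8 and 26.7 CPM. In UNx CreMinus kidneys it was 2.47, 4.05 and 3.14 CPM, and in UNx CrePlus kidneys 35.3, 41.2 and 78.1 CPM. The lowest CrePlus library was 4.68 times the highest CreMinus library, so the Cre groups did not overlap. Group means were 3.49 ± 1.39 and 28.3 ± 5.54 CPM in sham CreMinus and CrePlus kidneys and 3.22 ± 0.792 and 51.5 ± 23.2 CPM in UNx CreMinus and CrePlus kidneys (SD, n = 3 each). The counts behind these values ran from 55 to 3410 per library.

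The fitted log2 fold change of Ptgds for CrePlus over CreMinus was 3.02 ± 0.36 (SE) in sham kidneys and 4.01 ± 0.37 in UNx kidneys. Leaving out 1 of the 12 libraries at a time gave 2.82 to 3.39 in sham and 3.58 to 4.22 in UNx kidneys. Within each sex in sham kidneys, the ratio was 7.70 between the means of 2 female libraries each and 9.22 between 1 male library each. In UNx kidneys the female CrePlus library was 21.7 times the mean of the 2 female CreMinus libraries, and the 2 male CrePlus libraries averaged 15.5 times the male CreMinus library. Among the 4 deep UNx libraries alone, the 3 CrePlus libraries averaged 20.9 times the 1 CreMinus library.

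**Figure D1:**
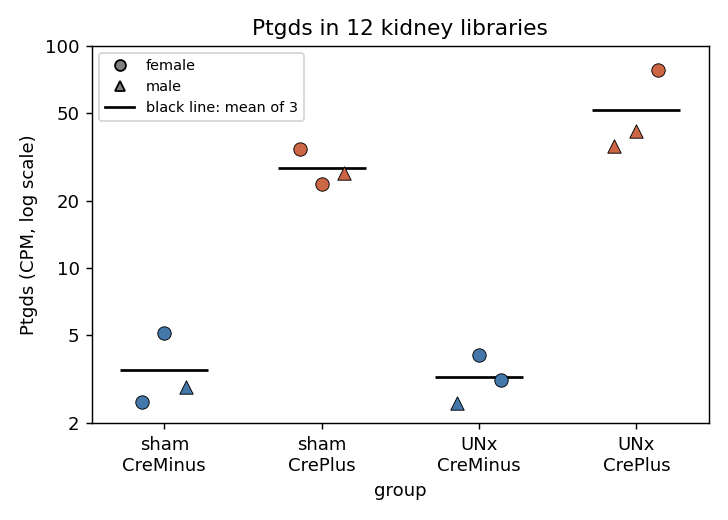
Level of Ptgds (CPM, log scale) in each of the 12 kidney libraries by group, with circles for female and triangles for male libraries and a line at the mean of 3. All 6 CrePlus libraries sit at 23.8 CPM or above and all 6 CreMinus libraries at 5.07 CPM or below.

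Ptgds was low in both CreMinus groups, whichever the surgery. UNx against sham in CreMinus kidneys gave a log2 fold change of -0.13 ± 0.37 (edgeR quasi-likelihood test, adjusted p = 1.00, 95% interval -0.93 to 0.68). In CrePlus kidneys the UNx libraries, from 35.3 CPM, all lay above the sham libraries, at most 34.5 CPM, with a log2 fold change of 0.86 ± 0.32. Its unadjusted p was 0.0225 and its adjusted p 0.692, so Ptgds did not pass the test. Without UNx CrePlus replicate 3 the change was 0.43, the lowest on leaving out 1 library, and the highest was 1.07. Without that library, or without sham CrePlus replicate 2 or 3, or with a depth term (alone or beside sex), the unadjusted p was not under 0.05. In female libraries alone the change was 1.43, where UNx CrePlus replicate 3 was the only library of its group. With a depth term the change was 1.40. Ptgds was the 1 of 10 members whose UNx and sham CrePlus groups did not overlap, where 9.78% of all tested genes had such groups and 4.73% had them with UNx higher. The female library of UNx CrePlus kidneys was the highest, at 1.89 times the higher of the 2 males. The Cre effect in UNx minus that in sham kidneys was 0.99 ± 0.49 (95% interval -0.09 to 2.07, adjusted p = 1.00). With a sex term in the edgeR fit it was 1.08 ± 0.38 (95% interval 0.26 to 1.91, unadjusted p = 0.0150, adjusted p = 0.997). In that fit UNx against sham in CrePlus kidneys gave 0.97 ± 0.24 (unadjusted p = 0.00169, adjusted p = 0.297). Neither passed. These surgery values use the same libraries in which Ptgds was chosen.

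Markers of other cells that could carry Ptgds were followed in the same libraries. The summed level of 5 adipocyte markers was 25.8 CPM in sham CrePlus replicate 3 and 0.181 to 1.84 CPM in the other 11 libraries. Ptgds was 26.7 CPM in that replicate, in a group of 23.8 to 34.5 CPM. In UNx CrePlus kidneys Ptgds was 35.3 to 78.1 CPM and the adipocyte markers summed to at most 0.549 CPM. Summed levels of 5 markers of oligodendrocytes and Schwann cells were 16.5 to 19.8 CPM in sham CreMinus, 12.996 to 22.5 in sham CrePlus, 14.02 to 21.6 in UNx CreMinus and 14.3 to 18.3 in UNx CrePlus kidneys, overlapping throughout. Of 5 epididymis markers, Lcn5, Lcn8 and Spag11b had no count in any library. Of 72 markers listed for 16 cell types, 52 were tested, and 0 were called for Cre in sham (background 0.0267%) or in UNx kidneys (background 0.14%). In UNx kidneys the median log2 fold change with Cre was 1.13 for the 5 tested macrophage markers, 4 of them above 0, and 0.45 for the 5 interstitial fibroblast markers, all above 0. In sham kidneys these medians were 0.06 and -0.19. Medians of the other cell types in UNx kidneys ran from -1.71 (adipocyte) to 0.37 (smooth muscle). The part of adipocytes or of any other of these cell types in the values of Ptgds was not tested.

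The genes beside Ptgds on chromosome 2 showed no difference of that size. Of its 10 nearest tested neighbours, 5 on each side from 25395874 to 25571316, 0 were called in either Cre comparison. Of all tested genes, 0.0267% were called in sham and 0.14% in UNx kidneys, so few calls among 10 genes would be found either way. Their log2 fold changes ran from -0.39 to 0.60 in sham and from -0.38 to 0.40 in UNx kidneys. The nearest on each side were BC029214, 4055 bases away, at 0.04 and 0.03 in sham and UNx kidneys, and C8g, 28540 bases away, at 0.34 and 0.08. C8g is itself a lipocalin family gene.

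The genes whose levels ran most like that of Ptgds over the 12 libraries were Zmat3, Cdc42bpa, Tmem129, Wnt9a and 2610034B18Rik, among 13583 genes with a mean of at least 1 CPM. Pearson r of log2 CPM was 0.95 for each of them, and the libraries fall into a CreMinus and a CrePlus cluster that sets this value. Zmat3, which encodes an RNA-binding protein and target of p53, averaged 26.2 and 44.6 CPM in sham CreMinus and CrePlus kidneys and 27.01 and 53.01 CPM in UNx CreMinus and CrePlus kidneys. Over the 12 libraries Zmat3 ran from 23.8 to 55.002 CPM, a much smaller range than that of Ptgds. By deviations from the 4 group means the most like genes were others, Ubac1 (r = 0.92), 9930014A18Rik (0.92), Prmt3 (0.91), Scaper (0.90) and Rasef (0.88). Among the members, the r of deviations was highest for Ptger3, at 0.63. These r values of deviations are the highest of many over 12 libraries. Whether unrelated genes would reach them was not tested.

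Compared per length, as CPM per kilobase of annotated exon (RPKM), Ptgds changed its place among the members. In sham CreMinus and UNx CreMinus kidneys it ranked 8 of 10, at a mean of 2.11 and 1.95 RPKM. It ranked 3 in sham CrePlus kidneys, at 17.2 RPKM, beside Hpgd at 18.2, and 2 in UNx CrePlus kidneys, at 31.2 RPKM. Ptges3 ranked 1 in every group, with a mean over all libraries of 47.1 RPKM. Behind it came Hpgd (14.98), Ptgds (13.1), Ptges2 (9.70), Ptger3 (7.99), Ptges (7.62), Ptgs1 (5.81), Ptger1 (4.14), Ptger4 (0.767) and Ptgs2 (0.115), all in mean RPKM. The ranges over the 12 libraries overlapped between neighbours in this order, except between Ptges3 and Hpgd, between Ptger1 and Ptger4 and between Ptger4 and Ptgs2. The highest library of Ptgds was 31.6 times its lowest, against 8.06 times for Hpgd, 6.14 for Ptgs2, 2.98 for Ptges and 1.20 for Ptges3.

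**Figure D2:**
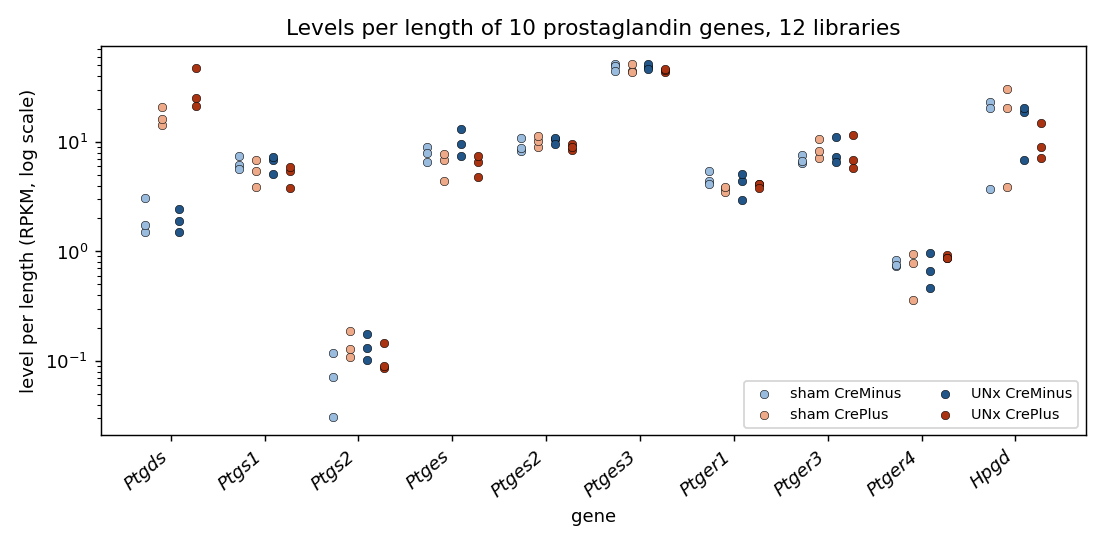
Level per length (RPKM, log scale) of the 10 prostaglandin genes, with 1 point per library and colours for the 4 groups. Ptgds separates the Cre groups, Ptges3 stays between 43.1 and 51.9 RPKM, and Ptgs2 lies lowest at 0.0306 to 0.188 RPKM.

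None of the other 9 members was called with Cre. In sham kidneys 0 of 9 passed (edgeR quasi-likelihood test, adjusted p of 1.00 for all, background 0.0267%) and 0 had an unadjusted p under 0.05. DESeq2 called 43 of 14054 genes there and 0 of the 9. In UNx kidneys 0 of 9 passed (adjusted p from 0.404, background 0.14%) and 1 had an unadjusted p under 0.05. DESeq2 called 188 of 15565 genes there and again 0 of the 9. Their median log2 fold change was -0.07 in sham kidneys, with 4 higher and 5 lower, and -0.20 in UNx kidneys, with 1 higher and 8 lower, against 0.00 and -0.01 over all tested genes. The UNx split changed with a sex term in the fit. Ptger1 (0.03), Ptger3 (0.05), Ptger4 (0.57) and Hpgd (0.19) were then higher with Cre. Ptgs1, Ptgs2, Ptges, Ptges2 and Ptges3 stayed lower. The CrePlus and CreMinus libraries did not overlap for 1 of the 9 in sham kidneys, lower with Cre (background 8.16%, and 3.49% lower) and for 0 of the 9 in UNx kidneys (background 15.8%).

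The cyclooxygenase genes stand upstream of every synthase. Ptgs1, the constitutive form, was at 28.7, 23.7 and 22.1 CPM in sham CreMinus and 26.5, 21.04 and 15.02 CPM in sham CrePlus kidneys. It was at 19.96, 26.6 and 28.2 CPM in UNx CreMinus and 21.1, 14.6 and 23.0 CPM in UNx CrePlus kidneys. The groups overlapped, and with Cre the log2 fold change was -0.25 ± 0.23 in sham (95% interval -0.76 to 0.25) and -0.34 ± 0.23 in UNx kidneys (-0.85 to 0.16). Ptgs2, the inducible form, gave 3 to 29 counts per library, or 0.140 to 0.861 CPM. With Cre its fitted value was 0.93 ± 0.47 (log2) in sham kidneys, where sham CreMinus replicate 3 had 3 counts, and -0.31 ± 0.43 in UNx kidneys. The difference between these, -1.24 ± 0.64, did not pass (adjusted p = 1.00). The 95% interval of Ptgs2 in sham kidneys, -0.11 to 1.97, spans both no change and a rise by several-fold, so the counts did not fix the size of any change.

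The PGE2 synthase gene Ptges, inducible and coupled to Ptgs2, had the lowest values with Cre among the members in UNx kidneys. It was at 29.3, 37.9 and 51.7 CPM in UNx CreMinus and 25.9, 18.8 and 29.3 CPM in UNx CrePlus kidneys, and the groups met at their edge. The log2 fold change was -0.68 ± 0.25 with an unadjusted p of 0.0213 and an adjusted p of 0.404. In sham kidneys it was at 35.0, 31.1 and 25.8 CPM without Cre and 26.7, 30.3 and 17.3 CPM with Cre, a log2 fold change of -0.30 ± 0.25. Averaged over surgery the change was -0.49 ± 0.18 (adjusted p = 0.320; background 0.521%), and over the alternative settings it ran from -0.49 to -0.28 with adjusted p from 0.0831 (sex as a term) to 0.845 (depth as a term). With a sex term in the edgeR fit the change was -0.33 ± 0.15 in sham kidneys (unadjusted p = 0.0498, adjusted p = 0.656). In UNx kidneys a sex term gave -0.49 ± 0.15 (unadjusted p = 0.00749, adjusted p = 0.206). A depth term, which rests on UNx CreMinus replicate 1, gave -0.25 in UNx kidneys. Leaving out 1 library gave -0.86 to -0.45. The change was -0.45 when replicate 3 of UNx CreMinus was left out. Its unadjusted p was then not under 0.05, nor was it when replicate 2 of UNx CrePlus was left out or with depth as a term, alone or beside sex.

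The remaining synthase genes varied least over the libraries. Ptges2 was at 42.1 to 56.8 CPM and Ptges3, which also encodes the Hsp90 co-chaperone p23, at 95.5 to 115 CPM over the 12 libraries. For Ptges2 the log2 fold changes with Cre were 0.12 ± 0.11 in sham and -0.20 ± 0.11 in UNx kidneys. For Ptges3 they were -0.07 ± 0.09 (95% interval -0.27 to 0.13) and -0.11 ± 0.09 (-0.31 to 0.09).

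Among the PGE2 receptor genes, Ptger1 was the member whose sham groups did not overlap. It was at 29.4, 23.8 and 22.5 CPM in sham CreMinus and 20.6, 19.1 and 21.001 CPM in sham CrePlus kidneys, with a log2 fold change of -0.32 ± 0.17 that did not pass (adjusted p = 1.00). In UNx kidneys the change was -0.05 ± 0.17 and the groups overlapped. The library kit does not keep strand, so reads of Ptger1 cannot be told apart from reads of any gene that overlaps it, and its values are uncertain to that extent.

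Ptger3, whose receptor lowers cyclic AMP and opposes vasopressin in the tubule, was at 32.8 to 66.5 CPM. Its changes with Cre were 0.33 ± 0.27 in sham and -0.03 ± 0.27 in UNx kidneys. Its highest library, UNx CrePlus replicate 3, was also the highest for Ptgds. Ptger4, whose receptor raises cyclic AMP, was low at 2.37 to 6.49 CPM and 48 to 267 counts. Its changes were -0.17 ± 0.33 and 0.36 ± 0.32, and its lowest library was sham CrePlus replicate 3.

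**Figure D3:**
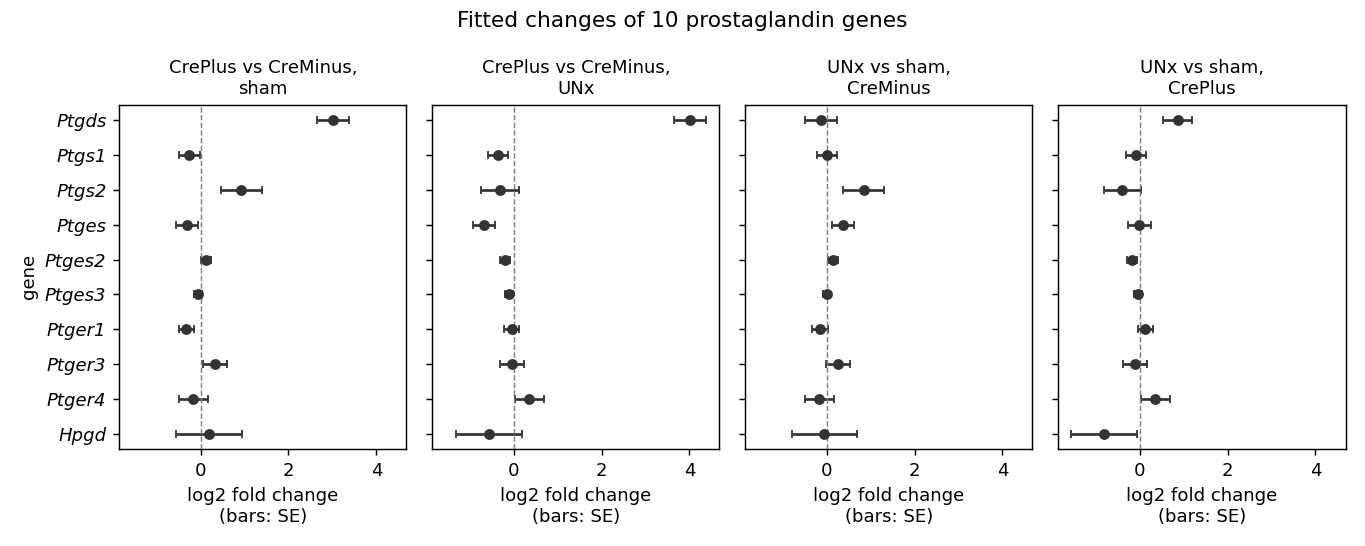
Fitted log2 fold change (points) with SE (bars) of the 10 genes for CrePlus against CreMinus in sham and UNx kidneys and for UNx against sham in CreMinus and CrePlus kidneys. Ptgds lies at 3.02 and 4.01 in the Cre panels, and the other 9 genes lie between -0.68 and 0.93 there.

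Surgery called 0 of the 10 members in CreMinus kidneys and 0 of 10 in CrePlus kidneys by edgeR (background 0% in both; 194 and 1022 of all tested genes at an unadjusted p under 0.05). DESeq2 called 0 of the 10 in both, where it called 2 of 19729 genes in CreMinus and 9 of 19729 in CrePlus kidneys. The log2 fold changes of the members ran from -0.17 to 0.85 in CreMinus kidneys, where the highest was Ptgs2 at 0.85 ± 0.47 and Ptges stood at 0.37 ± 0.25. In CrePlus kidneys they ran from -0.81 for Hpgd to 0.86 for Ptgds, and Ptgs2 stood at -0.39 ± 0.43. The interaction of Cre and surgery called 0 of 10 in this fit (background 0%), with 277 genes at an unadjusted p under 0.05, none of them a member. DESeq2 called 0 of 19729 genes. Among the other settings that kept all libraries, Ptgds had an unadjusted p under 0.05 with DESeq2, as Ptgds and Ptges2 had with a sex term. Ptger1 had such a p with a depth term, alone or beside sex, and that term rests on UNx CreMinus replicate 1. Some of the fits without 1 library gave such a p for Ptgds, Ptgs2, Ptges2 or Ptger3. The Cre comparison and the surgery comparison that meet in one group share its 3 libraries.

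Hpgd separated the libraries by sex. In sham CreMinus kidneys it was at 39.3 and 34.7 CPM in the females and 6.31 in the male, and in sham CrePlus kidneys at 34.6 and 50.9 in the females and 6.47 in the male. In UNx CreMinus kidneys it was at 31.6 and 34.7 CPM in the females and 11.5 in the male, and in UNx CrePlus kidneys at 25.3 in the female and 12.1 and 15.1 in the males. Every female library lay above every male library. In a fit with the 4 groups and sex as terms, the log2 difference of male minus female was -1.86 ± 0.27 (adjusted p = 0.000721), that is 3.64-fold lower in males. The female mean was 5.86 and 6.60 times the male in sham CreMinus and CrePlus kidneys and 2.88 and 1.86 times in UNx CreMinus and CrePlus kidneys. Whether the ratio differs between sham and UNx kidneys was not tested.

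**Figure D4:**
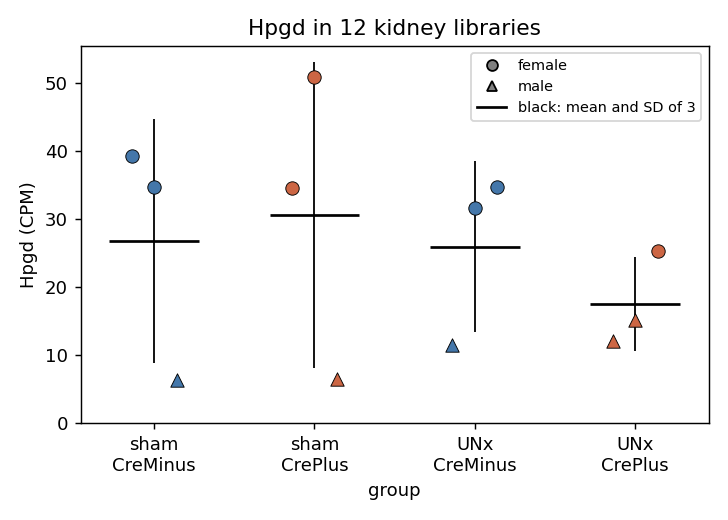
Level of Hpgd (CPM) in each of the 12 kidney libraries by group, with circles for female and triangles for male libraries and the mean and SD of 3 in black. The 7 female libraries sit between 25.3 and 50.9 CPM and the 5 male libraries between 6.31 and 15.1 CPM.

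The Cre values of Hpgd had a wide error, which narrowed with sex as a term. They were 0.20 ± 0.74 in sham and -0.56 ± 0.75 in UNx kidneys without a sex term, and 0.17 ± 0.32 and 0.19 ± 0.33 with it. UNx against sham in CrePlus kidneys went from -0.81 ± 0.75 to 0.14 ± 0.35. A depth term in place of sex also turned these signs, to 0.60 ± 1.05 for Cre in UNx kidneys and 0.71 ± 1.31 for UNx in CrePlus kidneys. With both terms the Cre value in UNx kidneys was -0.07 ± 0.46. Sex and depth are both uneven over the UNx groups, so their parts in these values cannot be told apart.

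In all, 3 of the 10 members were called between the sexes, all lower in males, where 20.4% of tested genes were called and 9.89% were lower. Besides Hpgd these were Ptges, at 17.3 to 29.3 CPM in males and 26.7 to 51.7 in females (-0.52 ± 0.11, adjusted p = 0.00862), and Ptgs1, at 14.6 to 22.1 CPM in males and 21.04 to 28.7 in females (-0.43 ± 0.11, adjusted p = 0.0217). Without sham CrePlus replicate 3, a male library, Hpgd alone was called, and Ptges had an adjusted p of 0.0517 and Ptgs1 of 0.1099. Ptgds (-0.55 ± 0.19, adjusted p = 0.0623), Ptger4 (-0.48 ± 0.21, 0.133), Ptger3 (-0.35 ± 0.17, 0.168), Ptgs2 (-0.44 ± 0.33, 0.385) and Ptges2 (0.16 ± 0.07, 0.141) did not pass. Ptger1 (-0.17 ± 0.12, 0.353) and Ptges3 (-0.01 ± 0.07, 0.960) did not pass either. Sex is also uneven over depth, with 3 of the 5 males among the 4 deep libraries, and with a depth term added Hpgd and Ptges were still called and Ptgs1 was not (adjusted p = 0.0732).

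Of 27 further prostanoid genes listed (phospholipases, other synthases, receptors, transporters and reductases), 21 were tested. With Cre, 0 of the 21 were called in sham (background 0.0267%) or UNx kidneys (background 0.14%). Their median log2 fold change was -0.01 in sham and -0.08 in UNx kidneys, against 0.00 and -0.01 over all tested genes. Hpgds encodes the haematopoietic PGD2 synthase, an enzyme of mast cells and other immune cells unrelated to the lipocalins. It stood at 0.849 to 1.47 CPM in UNx CreMinus and 1.79 to 2.80 CPM in UNx CrePlus kidneys (log2 fold change 0.96 ± 0.37, unadjusted p = 0.0257, adjusted p = 0.418). In sham kidneys its value was -0.27 ± 0.38. In the UNx CrePlus kidneys the summed levels of 5 macrophage markers were 94.8 to 171 CPM, against 96.9 to 109 in UNx CreMinus kidneys, and those of 5 mast cell markers 12.3 to 19.98 against 17.95 to 28.98. The macrophage markers had a median log2 fold change of 1.13 with Cre there, with 4 of 5 above 0 and 0 called. Their part in the value of Hpgds was not tested.

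The receptor genes for PGD2 itself were near the floor. Ptgdr had 6 counts in all and was not tested: 1 count each in sham CrePlus replicates 2 and 3 and UNx CrePlus replicate 2, 3 counts in UNx CrePlus replicate 1 and 0 in the other 8 libraries, among them all 6 CreMinus libraries. Ptgdr2 had 6 to 25 counts, or 0.272 to 0.741 CPM, with changes of 0.30 ± 0.44 in sham and -0.43 ± 0.40 in UNx kidneys. These 2 genes, and Ptger2, the remaining PGE2 receptor gene with 3 to 13 counts and not tested, were singled out after their values were seen. The 95% intervals of the changes of Ptgdr2 were -0.66 to 1.27 in sham and -1.33 to 0.46 in UNx kidneys.

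Of the other prostanoid genes with the lowest p in UNx kidneys, Fam213b, a prostamide and prostaglandin F synthase gene, was lower with Cre (-1.71 ± 0.73, adjusted p = 0.449 and not passing). It stood at 11.4, 10.0 and 43.2 CPM in UNx CrePlus replicates 1 to 3 and at 51.6, 84.5 and 76.4 CPM in UNx CreMinus kidneys. Its lowest library of all, at 7.41 CPM, was sham CrePlus replicate 3, the library with the adipocyte markers. Ptgfrn, which encodes a regulator of the prostaglandin F receptor, stood at 0.45 ± 0.20 (adjusted p = 0.461), and Ptgr1, a reductase gene, at 0.65 ± 0.35 (adjusted p = 0.542).

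Other eicosanoids (leukotrienes, epoxides and hydroxy acids) gave 15 tested genes. Of these, 0 of 15 were called with Cre in sham (background 0.0267%) or UNx kidneys (background 0.14%). Those with the lowest p in UNx kidneys were the epoxide hydrolase gene Ephx1 (0.67 ± 0.28, adjusted p = 0.441), the leukotriene receptor gene Cysltr1 (0.86 ± 0.37, 0.449) and the leukotriene synthesis genes Alox5ap (0.82 ± 0.38, 0.475) and Alox5 (0.73 ± 0.38, 0.523). The list's median was -0.01 in UNx kidneys.

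Lipocalins are small carriers of lipids and other hydrophobic molecules. Of 5 other lipocalin genes tested from 17 listed, 0 were called with Cre in sham (background 0.0267%) or UNx kidneys (background 0.14%). Lcn2, which encodes the kidney injury marker NGAL, had a log2 fold change of 3.39 ± 1.02 in UNx kidneys (adjusted p = 0.329) and 1.57 ± 1.05 in sham kidneys. It stood at 24.1, 16.3 and 0.733 CPM in UNx CrePlus replicates 1 to 3 and at 0.507 to 2.30 CPM in UNx CreMinus kidneys, so the groups overlapped. UNx CrePlus replicate 3 was the highest of all 12 libraries for Ptgds and the lowest of its group for Lcn2. Apom, an apolipoprotein gene, stood at -0.51 ± 0.17 (adjusted p = 0.375) and Ambp at -0.45 ± 0.41 (adjusted p = 0.741) in UNx kidneys.

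In the authors' deposited table of UNx CrePlus against UNx CreMinus kidneys, whose fold changes are shrunken towards 0, Ptges stood at -0.52 (adjusted p = 0.167) and Hpgd at -0.31 (adjusted p = 0.692). In the authors' deposited table of UNx against sham CrePlus kidneys, Ptgds stood at 0.55 (adjusted p = 0.363). None of the 9 members other than Ptgds had an adjusted p under 0.05 in any of the authors' deposited tables. Ptgs2 had no adjusted p in some of these, so it could not pass there.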

How the data were processed

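Per the labels' protocols, whole-kidney RNA was made into libraries with SMART-Seq v4, which keeps no strand. The authors deposited unnormalised read counts for each gene. The tools named in the submitters' processing notes are HTSeq, DESeq2, FastQC 0.11.5 and cutadapt 1.11, with mm10 and GRCm38 as builds. Which aligner, annotation and strand option they used is not given in the sources used here. The deposited tables also hold the authors' mean signal per gene, log2 fold changes, a score (test statistic) and p-values, which were read for the members only.

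Counts were fitted in R 4.3.3 with edgeR 4.0.16 (filterByExpr, TMM, 4 group means over 12 libraries, quasi-likelihood test), with Benjamini-Hochberg adjustment over 14970 genes and calls at an adjusted p under 0.05. The fit was tested on simulated data. SE is the size of the change over the square root of its F statistic. Intervals are 95% and cover the fit's error. CPM used TMM-scaled totals, and RPKM used exon lengths of GENCODE release 21 for mouse, which may differ from the authors' annotation. Male against female was the sex term of the same fit and was added after the data were seen. Alternatives were other scaling, no filter, DESeq2 1.42.0, terms for sex and depth, thinned counts, fewer groups, female libraries and leaving out each library. Depth was 18914300 to 42785476 counts, which are reads and not molecules. Replicates are numbered in accession order, and a p-value here reflects variation among these samples, which may be partly technical.

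The members and gene lists were chosen with earlier results of these data known. All 10 members were named in each comparison. Of each further list up to 4 genes of smallest p were named, with the 5 genes most like Ptgds by each measure and its nearest neighbours. Likeness was computed on log2 CPM with a prior count of 2. Marker lists for 16 cell types were followed. The report prints values of those of proximal tubule, adipocyte, oligodendrocyte and Schwann cell, epididymis, macrophage, mast cell, interstitial fibroblast and smooth muscle.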

Additional observations from a re-analysis of the deposited data

How the results depend on the processing

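No paired analysis was possible because the labels give no replicate numbers. For Cre, surgery and their interaction the number of members called, Ptgds left out for Cre, was 0. It stayed 0 in every alternative setting and on leaving out any 1 library. The most genes of the whole table called in any of these settings was 385 of 15944, with DESeq2 for Cre averaged over surgery. With so small a share called over all genes, these counts say little about the members. For male against female, 3 members were called, with 2 to 3 under the alternatives. Leaving out 1 library gave 1 to 4, and 1 without sham CrePlus replicate 3. For Ptgds with Cre, the alternatives gave 2.95 to 3.05 in sham and 3.84 to 4.44 in UNx kidneys. For Hpgd in males the range was -2.64 to -1.82, and Ptgs1 in males was no longer called with sex and depth terms (-0.42, adjusted p = 0.0732) or in sham libraries alone (-0.45, adjusted p = 0.122).

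Signs turned for values that did not pass, and the cause was not tested. With a sex term, in UNx kidneys with Cre, Ptger1 gave 0.0321, Ptger3 0.0478 and Hpgd 0.19, and Hpgd gave 0.14 for UNx in CrePlus kidneys. A depth term rests on UNx CreMinus replicate 1. With it, in UNx kidneys with Cre, Ptgs2 gave 0.0903, Ptger1 0.44, Ptger3 0.15 and Hpgd 0.60. That term gave 0.0473 for Ptgds with UNx in CreMinus kidneys, and 0.20 for Ptgs2 and 0.71 for Hpgd with UNx in CrePlus kidneys. With both terms Ptger1 gave 0.44. In female libraries alone, Ptger4 gave 0.13 with Cre in sham and Ptger3 0.42 with Cre in UNx kidneys. Thinned counts gave 0.0288 for Ptgds with UNx in CreMinus kidneys. Ptges3 in males gave 0.00217 with other scaling factors, 0.00745 with thinned counts and 0.0287 in sham libraries.

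Leaving out 1 library gave, with Cre, -0.46 to 0.14 for Ptger4 and -0.39 to 0.67 for Hpgd in sham kidneys, and -0.24 to 0.12 for Ptger1 and -0.39 to 0.23 for Ptger3 in UNx kidneys. It gave -0.33 to 0.24 for Ptgds with UNx in CreMinus kidneys and -0.0888 to 0.0512 for Ptges3 in males. Depth limits Ptgs2, which had 3 to 29 counts per library.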
